A study of Mus musculus with 6 samples.

Results

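The cytosolic ribosomal protein genes were taken as the protein-coding rows of the count table whose symbol is Rpsa or begins with Rpl, Rps or Rplp followed by a digit. Symbols beginning with Rps6k, and the genes Rps19bp1 and Rpl7l1, were left out, since their products are kinases or other factors and not ribosomal proteins. The rule took 90 of 55573 genes, 56 of the large subunit and 34 of the small subunit, lying on 20 chromosomes. Of the 90, 77 are the standard genes of the ribosome (46 large, 31 small) and are called core genes here. The other 13 are 6 paralogs, 6 genes with a pseudogene symbol that the annotation lists as protein-coding, and Rps27rt, a retrogene copy of Rps27. The filter on low counts passed 88 genes, 54 large and 34 small. Rpl10l, a paralog known from the testis, had a count of 0 in all libraries, which allows up to 3 counts in each from counting error alone, and Rpl39l had 45 counts over the 6 libraries. Neither was tested.

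A ribosome is built from a large subunit, which joins amino acids, and a small subunit, which reads the mRNA. Ribosomal proteins mostly enter these particles in equal numbers, and their mRNAs share a pyrimidine tract at the start (the TOP motif) through which growth signals such as mTOR set their translation. Blood formation is sensitive to a shortage of them: loss of 1 copy of several of these genes causes Diamond-Blackfan anemia in people.

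RNA came from LSK cells of bone marrow, which lack lineage markers and carry Sca-1 and c-Kit. The mice were C57BL/6J and 3 months old. LSK cells are the fraction that holds the hematopoietic stem cells and early multipotent progenitors. There were 3 wild-type libraries (Etv6+/+) and 3 mutant libraries. The mutant's genotype label is Etv6+/-, while the text of the series speaks of a heterozygous R355X allele. Etv6 encodes a repressor of the ETS family of DNA-binding proteins. The labels name no treatment. The labels do not say whether the libraries of a genotype came from separate mice, so p-values measure only the spread between these libraries. In bulk samples, fewer cells of a type and less RNA per cell cannot be told apart.

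The libraries held between 45194733 (mutant 3) and 92151105 (mutant 1) expected counts. Etv6 itself was at 454, 419 and 400.1 CPM (counts scaled to a common library size by TMM) in the wild-type libraries and at 305, 341 and 386 in the mutant ones. All mutant libraries were below all wild-type ones, with a log2 fold change of -0.30 (SE 0.086, adjusted p = 0.245, edgeR's quasi-likelihood test; exact two-sided permutation p = 0.1, the smallest that 3 against 3 allow). Reads per gene do not tell the alleles apart. The sorted cells' own markers were present, with Kit at 419 CPM ± 33.0 (SD, n = 3) in wild type and 378 ± 23.5 in the mutant, and Ly6a, which encodes Sca-1, at 85.8 ± 12.2 and 78.2 ± 2.8. The 9 LSK and progenitor markers summed to 1636 to 2127 CPM in wild type and 1659 to 1874 in the mutant. Of the 9, 0 had a fold change above 0, against 50.6% of all tested genes.

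Ribosomal protein mRNAs made up a larger share of the mutant libraries. The 90 genes took 4.62%, 4.80% and 4.67% of all counts in the wild-type libraries and 5.47%, 5.04% and 4.96% in the mutant libraries, so that the groups did not overlap (4.70% ± 0.0954 against 5.16% ± 0.277, SD, n = 3). No single ribosomal protein gene passed an adjusted p of 0.05 in the test across all 20646 genes, where 0.266% of genes passed. At an unadjusted p under 0.05, 60 of the 88 tested genes were higher in the mutant, against 5.83% of all tested genes, and 0 were lower, against 4.8% (10.6% in either direction). The fold change was above 0 in 87 of 88 genes, against 50.6% of all tested genes. All 3 mutant libraries stood above all 3 wild-type libraries in 71 of 88, against 8.45%. The reverse order occurred in 0, against 7.84%. The differences were small: the median log2 fold change was 0.19, with quartiles of 0.15 and 0.25, while that of all tested genes was 0.00. DESeq2 passed 3 members, Rpl39 (adjusted p = 0.0129), Rps20 (0.0497) and Rps27 (0.0497), and 329 of all 20646 genes. limma-voom passed 0 members.

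Mutant 1 stood apart from the other 5 libraries in these genes. It was the highest of the 6 libraries in 86 of the 88 tested genes, against 24.4% of all tested genes. Relative to each gene's own mean over the 6 libraries, the members' median on the log2 scale was 0.27 in mutant 1, 0.00 in mutant 2 and 0.02 in mutant 3. In the wild-type libraries it was -0.13, -0.07 and -0.10. Mutant 2 and mutant 3 were therefore lower than mutant 1, but both stood above all wild-type libraries in 71 genes, against 13% of all tested genes, and these were the 71 counted above. With mutant 1 left out, the median log2 fold change was 0.11, that of all tested genes was 0.00, and 0 members passed (0.123% of 21205 genes did). Then 27 members had an unadjusted p under 0.05 and were higher, against 4.29% of all tested genes, 86 had a fold change above 0, against 49%, and 70 had both mutant libraries above all wild-type ones, against 12.8%. The count of 60 also moved to 24 without wild type 1 and to 39 without wild type 2.

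Other measures of the libraries differed as well, and their part in the result was not tested. Nuclear ribosomal RNA took 8.61% of its counts, against 6.30% to 7.19% in the other 5. The 7 B-lineage markers summed to 320.2 CPM in mutant 1, to 202 and 143 in the other mutant libraries, and to 101 to 135 in wild type. All 7 had a fold change above 0, against 50.6% of all tested genes. The 7 erythroid markers summed to 151 to 305 CPM in the mutant and 104 to 231 in wild type. The 6 mast cell, basophil and eosinophil markers summed to 54.9 to 74.0 CPM in the mutant and 42.9 to 45.1 in wild type, and the 6 macrophage and dendritic markers to 47.0 to 60.4 and 35.6 to 42.6. The 8 neutrophil markers, of which Mpo and Elane are also expressed in progenitors, summed to 5729 to 8606 CPM in wild type. They summed to 6153 and 6086 in mutant 1 and mutant 2, within that range, and to 4433 in mutant 3, the lowest of all libraries. The 6 T and NK cell markers summed to 94.9 to 126 CPM in wild type and 111 to 146 in the mutant, highest in mutant 1, and 4 of 6 had a fold change above 0. The fold change was above 0 in 5 of 7 erythroid and 5 of 6 macrophage and dendritic markers. It was above 0 in all 6 mast cell, basophil and eosinophil markers and in 2 of 8 neutrophil markers. The same held for 2 of 4 plasma cell, 3 of 4 megakaryocyte and 3 of 6 stromal and endothelial markers. No marker in these lists was at 0 in every library. Of these markers, 4 were higher at an adjusted p under 0.05 (edgeR), against 0.189% of all tested genes. Named after their values were seen, they were Hbb-bs and Hbb-bt, 2 of the 7 erythroid markers, Fcer1a, 1 of the 6 mast cell, basophil and eosinophil markers, and Klrb1c, 1 of the 6 T and NK cell markers, with log2 fold changes of 1.25, 2.12, 2.31 and 1.82. Hbb-bt, a beta globin gene, was at 18.9, 15.0 and 20.4 CPM in wild type and 99.5, 81.6 and 54.5 in the mutant. Of the 4 plasma cell markers, Igha was lower (-1.08), against 0.0775% of all tested genes.

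**Figure D1:**
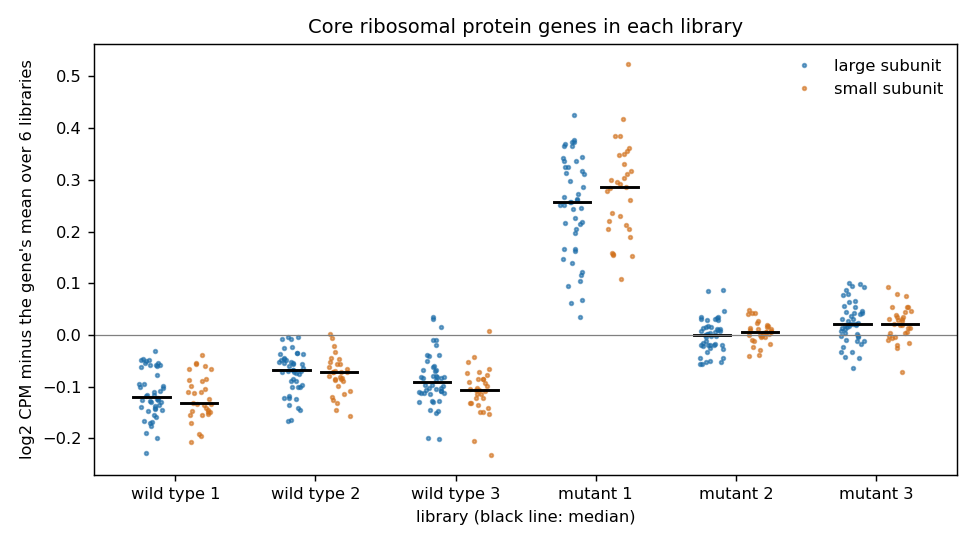
Each point is 1 of the 77 core genes, in log2 CPM minus the gene's own mean over the 6 libraries, for large (blue) and small (orange) subunit genes in each library, with black lines at the medians. Nearly all points lie below 0 in the wild-type libraries, around 0 in mutant 2 and mutant 3, and above 0 in mutant 1, and the subunits lie close together in every library.

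The large and small subunits differed little. In the large subunit the median log2 fold change was 0.20, and 34 of 54 tested genes were higher at an unadjusted p under 0.05, against 5.83% of all tested genes. All mutant libraries stood above all wild-type ones in 40 of these 54, against 8.45%. In the small subunit the median was 0.19, and 26 of 34 had an unadjusted p under 0.05. In 31 of these 34, all mutant libraries stood above all wild-type ones. Among core genes alone the mean log2 fold change was 0.19 (SD over 46 genes 0.07) in the large subunit and 0.21 (SD over 31 genes 0.07) in the small subunit. Without mutant 1 the median was 0.11 in each, with 15 large and 12 small subunit genes higher at an unadjusted p under 0.05, against 4.29% of all tested genes. Without wild type 1 these counts were 12 and 12, and without wild type 2 the small subunit count was 15.

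Within a library, the balance of the subunits can be read without any scaling between libraries. The median log2 CPM of large subunit genes minus that of small subunit genes was 0.06, 0.06 and 0.11 in wild type and -0.02, 0.03 and 0.01 in the mutant. These medians are not scaled by length, so only their change between libraries can be read. The wild-type mean was 0.08 ± 0.03 and the mutant mean 0.00 ± 0.03 (SD, n = 3), a difference of -0.07, and the groups did not overlap. By this measure the small subunit was slightly higher, relative to the large one, in the mutant. The median fold changes differ in the opposite direction, and the core means in the same one. Large subunit genes took 57.9%, 57.8% and 58.3% of the members' counts in wild type and 57.4%, 57.7% and 57.9% in the mutant, and these shares overlap. The difference of -0.07 is about the size of the SD of fold changes among the genes of either subunit. It was -0.04 over core genes alone and -0.02 with the counts of named pseudogenes added to their parents.

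Among large subunit genes the smallest p-values belonged to Rpl39, Rpl26, Rpl32, Rpl24, Rpl36a and Rpl37. Rpl39 encodes a very short protein at the wall of the exit tunnel, through which the new chain leaves the ribosome. It was at 519, 530.5 and 507 CPM in wild type and at 754, 594 and 624 in the mutant. Each mutant library was above each wild-type library, and mutant 1 was the highest (log2 fold change 0.34, SE 0.085, adjusted p = 0.188, edgeR). Rpl26, a protein near the tunnel exit, was at 224, 226 and 222 CPM in wild type and at 309, 244 and 264 in the mutant. The wild-type SD was 2.12 CPM and all mutant values were above the wild-type ones (0.28, SE 0.081, adjusted p = 0.255). Rpl32 was at 979.6, 1035 and 997 CPM in wild type and at 1311, 1089 and 1162 in the mutant, again without overlap (0.24, SE 0.074, adjusted p = 0.282). In Rpl24, Rpl36a and Rpl37 the groups did not overlap either and mutant 1 was highest, with log2 fold changes of 0.20, 0.26 and 0.26. Rpl38, a small protein tied in mice to the translation of Hox mRNAs, was at 208, 215 and 201 CPM against 309.6, 232 and 231 (0.31, SE 0.10).

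At the other end of the large subunit were Rpl4, Rpl7a, Rpl6, Rpl3 and Rpl10. Rpl4, which with Rpl17 lines the exit tunnel, was at 1413, 1438 and 1434 CPM in wild type and 1478, 1461 and 1432 in the mutant. These ranges overlap, and the log2 fold change was 0.03 (SE 0.056, unadjusted p = 0.618). Rpl3, which lies close to the catalytic center, was at 1125 CPM ± 16.8 against 1178 ± 44.7 (0.07, SE 0.058). Rpl7a and Rpl6 had log2 fold changes of 0.06 each. Rpl10, which carries a loop into the catalytic center and joins late in assembly, was at 957 CPM ± 10.3 against 1008 ± 19.8 (0.08, SE 0.055).

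The stalk of the large subunit, which recruits the GTPases of translation, is made of Rplp0 and of dimers of Rplp1 and Rplp2. Rplp1 was at 519, 513 and 534 CPM in wild type and 737, 546 and 582 in the mutant, and Rplp2 at 484, 477 and 502 against 678, 529 and 511. Their log2 fold changes were 0.25 (SE 0.098) and 0.23 (SE 0.097). Rplp0, the base of the stalk, was at 666, 686 and 699 CPM against 822, 740.5 and 701, with a log2 fold change of 0.14 (SE 0.069). All 3 stalk genes had all mutant libraries above all wild-type ones, as did 71 of 88 members and 8.45% of all tested genes. In Rplp0 and Rplp2 the gap between the groups was under 10 CPM.

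Among small subunit genes the smallest p-values belonged to Rps27, Rps20, Rps15a, Rps27rt, Rps26 and Rps29. Rps27, a zinc-finger protein, was at 409, 426 and 393 CPM in wild type and at 577, 454 and 484 in the mutant (log2 fold change 0.30, SE 0.086, adjusted p = 0.244, edgeR). Rps20, a protein of the head of the subunit, was at 555, 558 and 555 CPM in wild type and at 806, 636 and 629 in the mutant. Its wild-type SD was 1.79 CPM, its mutant SD 100.5 CPM, and the log2 fold change 0.31 (SE 0.090, adjusted p = 0.255). The groups did not overlap for either gene. Rps15a was at 705, 731 and 699 CPM against 944, 781 and 816 (0.25, SE 0.075), and Rps29, the shortest protein of the small subunit by coding length, at 436, 440.1 and 448 against 655, 489 and 506 (0.32, SE 0.099). Rps26, which touches the mRNA at the exit channel, was at 365, 382 and 389.5 CPM against 538, 415 and 442 (0.30, SE 0.089).

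Rps21 had the highest fold change of any core gene and also the widest spread within a genotype. It was at 127, 136 and 125 CPM in wild type and 212, 147 and 150.3 in the mutant (0.39, SE 0.12, adjusted p = 0.290). The value in mutant 1 was far from those in mutant 2 and mutant 3. The lowest fold change of the small subunit belonged to Rps3a1, at 1545, 1589 and 1497 CPM against 1710.6, 1597 and 1591 (0.08, SE 0.061). There the groups were separated by less than the spread within them. Rps6, the target of the S6 kinases, was at 829 CPM ± 29.1 against 905 ± 50.8 (0.13, SE 0.063).

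**Figure D2:**
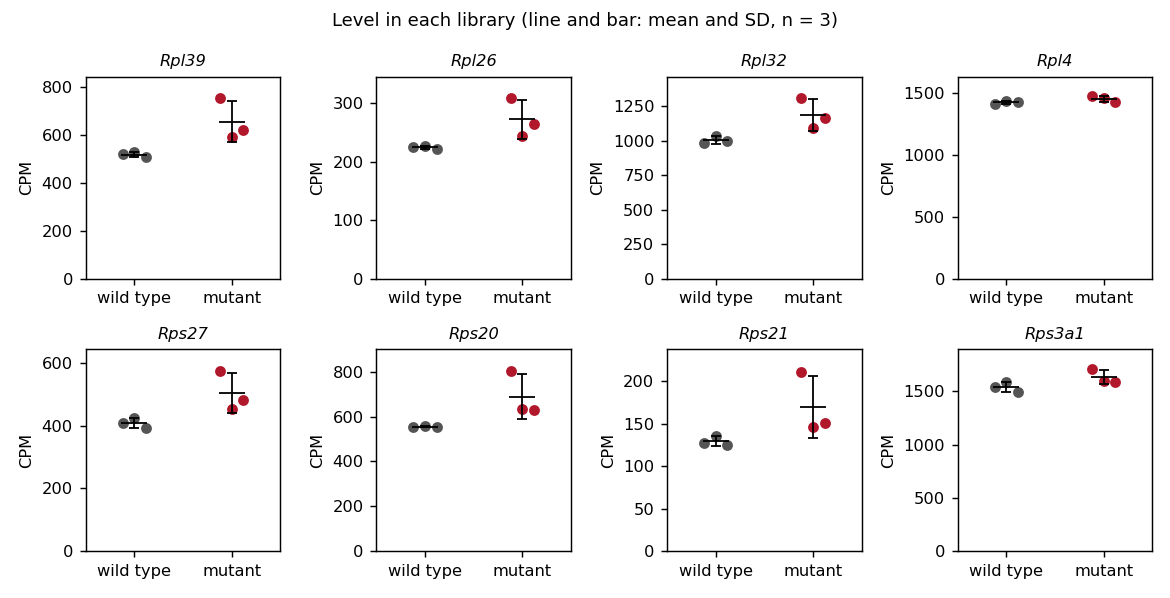
CPM in each library for 8 core genes, large subunit above and small subunit below, with a line and bar for the mean and SD of 3 libraries. In Rpl39, Rpl26, Rpl32, Rps27, Rps20 and Rps21 all mutant points are above all wild-type points and mutant 1 is the highest, in Rpl4 the groups overlap, and in Rps3a1 they are nearly level.

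**Figure D3:**
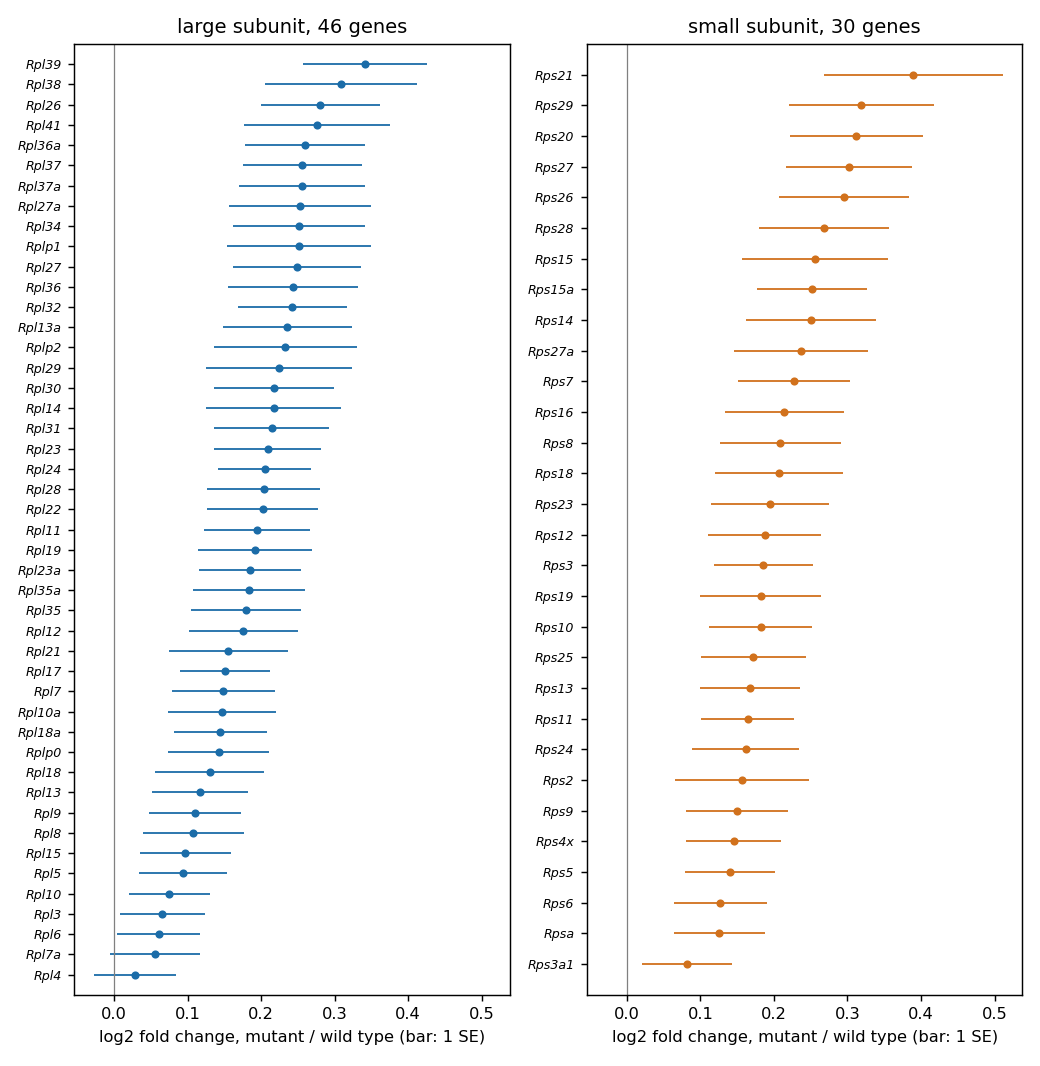
Log2 fold change of mutant over wild type for 46 large and 30 small subunit core genes, each with a bar of 1 SE. All 76 points lie above 0, from 0.03 in Rpl4 to 0.39 in Rps21, and the bars of neighbours overlap.

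The fold changes of the core genes ran with length. The genes with the highest fold changes, such as Rps21, Rpl39, Rps29, Rpl38 and Rps27, encode short proteins, and Rpl4 and Rpl3 encode the longest. Across the 77 core genes, log2 fold change and log2 coding length had a Pearson r of -0.82 and a Spearman rho of -0.82. The points are genes of the same 6 libraries and are not independent. Within the large subunit r was -0.85 (46 genes) and within the small subunit -0.80 (31 genes). Across 13618 protein-coding genes r was -0.12. Leaving out each library in turn gave r from -0.84 to -0.77 over the core genes, and -0.77 without mutant 1. The relation was seen apart in both steps of the difference: r was -0.69 for mutant 1 minus the mean of mutant 2 and mutant 3, and -0.78 for that mean minus the wild-type mean. All 77 core genes were above 0 in each step, with medians of 0.25 and 0.11.

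Other abundant genes of the shortest length range leaned the same way by less, and those of the longest range did not. The 26 core genes of 138 to 405 coding bases had a median log2 fold change of 0.25, and all 26 had an unadjusted p under 0.05. Among 35 other protein-coding genes of that length range and at least 100 CPM, the median was 0.10, and 9 (25.7%) were higher at that threshold, against 5.83% of all tested genes. At 408 to 582 bases, the median was 0.20 over 26 core genes and 0.04 over 77 other genes, of which 5 (6.49%) were higher at that threshold. At 588 to 1257 bases, it was 0.14 over 25 core genes and 0.00 over 333 other genes, of which 18 (5.41%) were higher. The cause of the length relation was not tested. Around a common line of log2 fold change on log2 coding length, which fell by 0.09 per doubling of length, the median residual was -0.01 in the large subunit (SD 0.04) and 0.01 in the small subunit (SD 0.04).

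**Figure D4:**
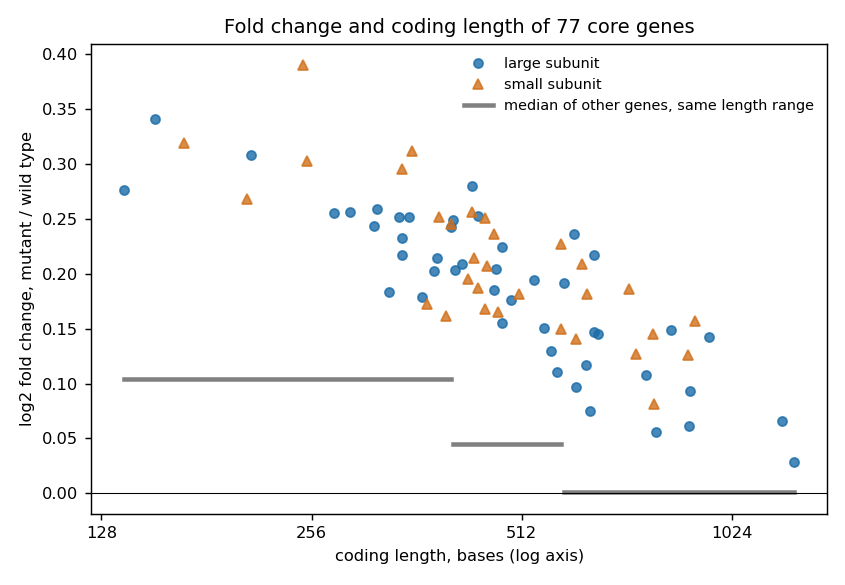
Log2 fold change against coding length (log axis) for the 77 core genes, circles for the large and triangles for the small subunit, with grey lines at the median of other protein-coding genes of at least 100 CPM in each length range. The points fall from short to long genes in both subunits, and all core genes lie above the grey line of their length range, the lines being at 0.10, 0.04 and 0.00.

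Levels of single genes are compared here per length. Per kilobase of coding sequence, the core genes had a median mean level of 1109 CPM in the large subunit (462 for Rpl35 to 4711 for Rpl41) and of 1233 in the small subunit (489 for Rps19 to 2950 for Rps29). Rpl41 encodes the shortest ribosomal protein, so its value per coding base is the most affected by its untranslated ends. Per kilobase of median transcript length, Rpl13, Rpl10a and Rpl32 were the highest of the large subunit at 1605, 1568 and 1540 CPM (means over all libraries). Rps4x, Rps24 and Rps3a1 led the small subunit at 2337, 2064 and 1626 CPM on the same scale. The ranges of Rpl13, Rpl10a and Rpl32 over the libraries overlapped, while Rps4x, at 2139, 2243 and 2111 CPM in wild type, lay above Rps24 per kilobase in every library. Rps20 was listed at 168 CPM per kilobase of median transcript length, which rests on long transcript models (median 3706 bases), and at 1746 per coding kilobase. The ratio of the subunits' median level per transcript kilobase was 0.927 to 0.945 in wild type and 0.897 to 0.922 in the mutant. The genotypes overlapped when the longest transcript was taken (0.839 to 0.897 against 0.817 to 0.863), when pseudogene counts were added (1.04 to 1.09 against 1.04 to 1.11), over genes of at least 1 CPM (0.950 to 1.02 against 0.927 to 0.993) and by coding length (0.831 to 0.848 against 0.810 to 0.838). This ratio depends on the length taken, since it was on average 0.923 by median transcript and 0.831 by coding length.

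Genes of universal proteins, which bacteria also have, were compared with the rest. The 77 core genes as a whole had a median log2 fold change of 0.19, with 56 higher at an unadjusted p under 0.05, against 5.83% of all tested genes. The 18 universal large subunit genes had a median log2 fold change of 0.15, with 9 at an unadjusted p under 0.05, and the other 28 large core genes had a median of 0.22, with 22. In the small subunit the medians were 0.19 (12 of 15) and 0.20 (13 of 16). These lists were not matched for length, with which fold change ran. The universal large list holds Rpl4 and Rpl3, of 1257 and 1209 coding bases. The other large list holds Rpl41 and Rpl39, of 138 and 153. The 22 genes of Diamond-Blackfan anemia had a median of 0.20, and 16 were higher at an unadjusted p under 0.05. Rps19, the gene most often mutated in that anemia, was at 287, 297 and 291 CPM in wild type and 379, 307 and 306 in the mutant (0.18, SE 0.083). All mutant libraries stood above all wild-type ones in 19 of the 22 anemia genes, against 8.45% of all tested genes. Rps19 and Rpl5 were among them, as were Rps7, Rpl11 and Rps10 (0.23, 0.19 and 0.18). Rpl5, which with Rpl11 binds the p53 regulator Mdm2, was at 995 CPM ± 25.3 against 1062 ± 45.2 (0.09, SE 0.060). Rpl35a overlapped between the groups (0.18, SE 0.076). Rps14, whose loss on a deleted chromosome arm underlies a myelodysplastic syndrome, was at 264 CPM ± 15.1 against 313 ± 40.8, without overlap (0.25, SE 0.088). Introns of 30 core genes hold small nucleolar RNAs, which guide the modification of ribosomal RNA. Their median log2 fold change was 0.17, against 0.21 for the 47 core genes without one, and these groups were not matched for length either.

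Several members have close copies, and expected counts split reads between them. The coding sequences of Rps27 and Rps27rt, taken from the GENCODE M21 transcripts of mm10, were identical over 255 bases including the stop codon. The run is shown because no read that lies within it can be assigned to either gene. Capitals would mark a mismatch, and there is none.

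Rps27 (chr3:90212522-90213651, minus strand) and Rps27rt (chr9:114982366-114982739, minus strand): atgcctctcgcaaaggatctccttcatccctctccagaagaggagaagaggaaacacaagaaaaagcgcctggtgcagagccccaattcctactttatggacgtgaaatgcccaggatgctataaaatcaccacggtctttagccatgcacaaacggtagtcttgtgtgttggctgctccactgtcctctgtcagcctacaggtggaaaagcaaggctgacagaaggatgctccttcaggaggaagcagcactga

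Rps27rt was listed at 121, 126 and 120.3 CPM in wild type and 179, 142 and 135 in the mutant, with a log2 fold change of 0.32 (SE 0.095) beside the 0.30 of Rps27. Its level is uncertain for the reason above. Rpl10-ps3 is identical to Rpl10 over 645 coding bases and had 0.07 (SE 0.055) beside 0.08. Rpl9-ps6 differs from Rpl9 at 1 of 579 bases and had 0.16 (SE 0.068) beside 0.11. Rpl36a-ps1 is 97.8% identical to Rpl36a and had 0.41 (SE 0.14) at 13.2, 12.9 and 13.8 CPM against 21.6, 15.8 and 15.6. In each of these pairs the copy lay on the same side of 0 as its parent, which is no separate evidence about the copy. Expected counts split reads between such close sequences, and 87 of 88 tested members were above 0. Rps12-ps3 had 6.03 to 8.09 CPM over the 6 libraries. Rpl9-ps1 and Rpl36-ps4 stayed under 1 CPM in all libraries, and Rpl36-ps4 was the 1 tested member with no positive fold change.

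The paralogs that differ more from their parent can be told apart by sequence. Rpl22l1 (67.5% identical to Rpl22 over its coding sequence) was at 110.4, 119 and 114 CPM in wild type and 157, 128 and 120.5 in the mutant (0.24, SE 0.091), beside 0.20 for Rpl22. Rpl36al (87.9% identical to Rpl36a) was at 109 CPM ± 9.2 against 122 ± 15.1 (0.17, SE 0.093), and its groups overlapped. Rps27l, taken at its longest reading frame of 318 bases, matched 198 of the 255 coding bases of Rps27. Rps27l, a gene known as a target of p53, was at 43.7 CPM ± 5.43 against 48.3 ± 4.45 (0.15, SE 0.10), and its groups overlapped too. Rpl3l, the striated muscle form of Rpl3, was under 1 CPM in all libraries. Rps4l is listed as a transcribed processed pseudogene and so is no member. It was at 4.75, 5.30 and 5.58 CPM in wild type and 7.21, 7.21 and 7.29 in the mutant (0.47, SE 0.14, adjusted p = 0.273).

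The promoters of the members are shown for the core genes with the 2 smallest p-values and the largest p in each subunit, among 19 core genes whose RefSeq start lies within 15 bases of the GENCODE 5′ end. The windows run from 100 bases before the start to 15 after the start, from RefSeq on GRCm38.p6. Capitals mark CGGAAG or its complement CTTCCG, a form of the GGAA core that ETS proteins bind, and CTTTC on the sense strand within 20 bases of the start, a pyrimidine run of the TOP kind.

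Rpl24 (chr16:55966175-55966289, plus strand): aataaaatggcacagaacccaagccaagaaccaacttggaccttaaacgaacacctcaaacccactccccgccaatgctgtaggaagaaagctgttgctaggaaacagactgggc
Rpl36a (chrX:134585554-134585668, plus strand): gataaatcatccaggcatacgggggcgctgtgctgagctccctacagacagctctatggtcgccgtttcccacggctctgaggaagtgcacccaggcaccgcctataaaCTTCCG
Rpl4 (chr9:64173287-64173401, plus strand): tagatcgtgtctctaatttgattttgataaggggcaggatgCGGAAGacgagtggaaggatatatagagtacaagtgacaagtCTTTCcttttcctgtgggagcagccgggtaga
Rps27 (chr3:90213634-90213748, minus strand): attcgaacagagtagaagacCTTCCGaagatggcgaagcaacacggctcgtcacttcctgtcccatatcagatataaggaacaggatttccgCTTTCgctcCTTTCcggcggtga
Rps21 (chr2:180257279-180257393, plus strand): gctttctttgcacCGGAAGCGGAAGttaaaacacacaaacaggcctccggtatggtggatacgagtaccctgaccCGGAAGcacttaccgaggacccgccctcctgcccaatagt
Rps4x (chrX:102189377-102189491, minus strand): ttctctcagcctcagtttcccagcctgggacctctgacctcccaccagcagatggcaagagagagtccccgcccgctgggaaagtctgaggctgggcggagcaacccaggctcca

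In these windows CGGAAG occurred 3 times in Rps21, once each in Rps27, Rpl36a and Rpl4, and not in Rpl24 or Rps4x. Over the whole RefSeq window of 300 bases (250 before and 50 after the start), 64 of the 90 members had an entry. CGGAAG on either strand was in 43 of these 64 (67.2%), 24 of 39 in the large and 19 of 25 in the small subunit. It was in 18.8% of 27025 genes and 23.5% of 17492 protein-coding genes with an entry. The 40 core genes with CGGAAG had a median log2 fold change of 0.21 and a median coding length of 441 bases. The 17 core genes without it had 0.16 and 582 bases, so this contrast runs with length. The pyrimidine run CTTTC was in 20 of 64 members (31.2%) and in 5.94% of protein-coding genes. Only this exact run within 20 bases of the RefSeq start was counted, so its absence does not show that a TOP motif is absent. CACGTG, the E-box that Myc binds, was in 6 of 64 members (9.38%) and in 8.91% of protein-coding genes on either strand. No marked stretch of one kind overlaps one of the other in the printed windows. A match is a description of the letters and not a site of binding.

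Ribosomal proteins whose symbols fall outside the rule were read in the same fit. Fau, which encodes a ubiquitin-like protein fused to Rps30, was at 174, 172 and 183 CPM in wild type and 235, 191 and 194 in the mutant (0.23, SE 0.081, adjusted p = 0.369). It showed the pattern of the members, with mutant 1 highest and no overlap. Rack1, a scaffold on the small subunit with a longer coding sequence, was at 870.3 CPM ± 24.6 against 918 ± 60.8, with overlap (0.08, SE 0.065).

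Other parts of the translation machinery are given beside the members, and none of their genes passed the adjusted threshold. Among 21 TOP genes, elongation factors and ribosome partners, which include Fau and Rack1, the median log2 fold change was 0.07, and 5 were higher at an unadjusted p under 0.05. Tpt1 was at 489, 504 and 457 CPM in wild type and 635, 543 and 530.4 in the mutant (0.24, SE 0.077), and Eif3f at 144 ± 3.55 against 163 ± 12.2 (0.18, SE 0.066). Among 78 mitochondrial ribosomal protein genes, which serve the separate ribosomes of mitochondria, the median was 0.03, with 2 higher (Mrps21 at 0.33, Mrpl33 at 0.17) and 1 lower (Mrpl19 at -0.18) at that threshold, so that 3 of 78 passed in either direction, a smaller share than the 10.6% of all tested genes. Of 10 snoRNA host genes of the TOP class, 1 was higher, Eef1b2 (0.15), an elongation factor gene that is also among the 21. Snhg6 and Snhg3 were at -0.16 and 0.29.

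The lists of factors that make, load or regulate ribosomes had medians below 0, as did all tested protein-coding genes, whose median was -0.01 with 6457 of 13665 above 0. Of 31 initiation factor genes 5 were lower and 0 higher at an unadjusted p under 0.05, against 4.8% and 5.83% of all tested genes, with a median of -0.03. Eif5, which acts as a GTPase activator at start-codon choice, was at 501, 513 and 471 CPM in wild type and 399.8, 450.3 and 433 in the mutant (-0.21, SE 0.065, adjusted p = 0.287). Eif3b and Eif1ax had -0.18 and -0.17. Of 22 assembly factors and chaperones 3 were lower (median -0.04). Nmd3, which exports the large subunit from the nucleus, was at 59.7, 61.6 and 63.7 CPM in wild type and lower, at 51.6 ± 2.5 CPM (n = 3), in the mutant (-0.26, SE 0.065, adjusted p = 0.191). Ltv1, a factor of small subunit maturation, was at 46.0, 51.9 and 52.2 CPM against 43.0, 40.5 and 40.4 (-0.28, SE 0.074), and Heatr3, a carrier of Rpl5, had -0.20. Among 14 tested RNA polymerase I genes, 3 were lower and 1 higher (median -0.07), with Twistnb, Polr1a and Rrn3 at -0.19, -0.16 and -0.17. Of 22 regulators of ribosomal protein mRNA 2 were lower (median -0.06). Myc, a transcription factor that drives ribosome production, was at 274, 352 and 277 CPM in wild type and 234, 219 and 240.3 in the mutant. All mutant values were below all wild-type ones (-0.38, SE 0.094, adjusted p = 0.181 with edgeR and 0.00984 with DESeq2). Larp1, which binds the TOP motif, was at 297, 320.4 and 340.2 CPM against 274, 283 and 299, and 1 mutant library overlapped the wild-type range (-0.16, SE 0.066). Rps6ka3, a kinase gene, had -0.21 (SE 0.097).

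**Figure D5:**
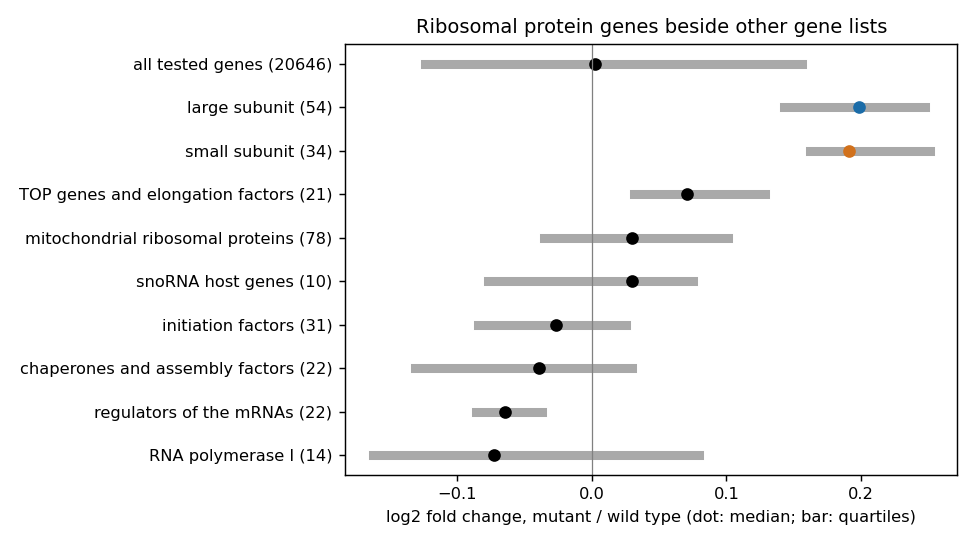
Median log2 fold change (dot) and quartiles (bar) of mutant over wild type for all tested genes, the members of each subunit and the other gene lists, with the number of genes tested in brackets. The bars of the large and small subunit lie wholly above 0 around 0.20 and 0.19, the TOP list lies between them and all genes, and the regulators of the mRNAs lie below 0.

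The members varied less within a genotype than the median tested gene, but they were not compared with other genes of like level. The SD of log2 CPM within a genotype had a median of 0.11 over the 88 members and 0.19 over all tested genes. It was 0.10 in Kit, 0.12 in Cd34, 0.14 in Etv6 and 0.19 in Flt3, which are not members. Apart from Rpl3l and Rpl9-ps1, both under 1 CPM, the widest spread was in Rps21 (0.21), Rpl36a-ps1 (0.19) and Rpl38 (0.17), and in all 3 mutant 1 was farthest from the other libraries of its group. The narrowest was in Rpl4 (0.02), Rpl10 (0.02) and Rpl10-ps3 (0.03). Reads also fell on 292 pseudogene rows of these genes, which amounted to 8.52% ± 0.115 of the members' CPM in wild type and 8.73% ± 0.279 in the mutant. That share overlapped between the groups.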

How the data were processed

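Per the submitters' processing notes, reads were processed by the authors with Trim Galore 0.60, STAR 2.7 and RSEM 1.31 on mm10. Per the labels' protocols, cDNA was made from total RNA by a SPIA kit (isothermal amplification), without selection of polyadenylated RNA or a strand mark. The deposited values are expected counts per gene, not scaled for library size. They were rounded to whole numbers here. The 92 spike-in rows were all 0 and were left out.

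Genes were filtered with filterByExpr, scaled by TMM and tested with the quasi-likelihood test of edgeR 4.0.16 (R 4.3.3), mutant against wild type, two-sided, with Benjamini-Hochberg adjustment over all 20646 tested genes at 0.05. The standard errors come from that fit and CPM are TMM-scaled. DESeq2 1.42.0 and limma 3.58.1 (voom) were alternatives, besides other scalings and filters, pseudogene counts added to their parents, and each library left out. Coding lengths are from GENCODE M21. The scripts were tested on simulated data.

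The members and the lists were chosen with earlier results of these data known. Named were the 6 smallest p, the 3 highest and 3 lowest levels per transcript kilobase in each subunit, the 5 widest spreads, stalk genes, paralogs, anemia genes, and the 3 smallest p of each list. Further members (Rpl41, Rpl35, Rpl6, Rpl7a and those at the ends of the length and level ranges) were named after their values were seen. The values of 2 genes that the rule names are not reported here. No test was made over the list as a whole. The members under 1 CPM had few counts, so their fold changes are imprecise.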

Additional observations from a re-analysis of the deposited data

How the results depend on the processing

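The median log2 fold change of the members was above 0 under every alternative run (0.16 with library size alone to 0.20 with limma-voom, and 0.11 to 0.24 when single libraries were left out). The number passing an adjusted p of 0.05 was 0 except with no count filter (15, of which 7 large and 8 small, with 527 of all genes and Etv6 at -0.30, adjusted p = 0.0111) and with DESeq2 (3, of which 1 large and 2 small, with 329 of all genes). The small subunit count at an unadjusted p under 0.05 was 17 with library size alone. Leaving out single libraries gave 24 to 65 members at that threshold, 12 to 38 in the large and 12 to 30 in the small subunit, and 16 to 67 of all genes past the adjusted one. The within-library difference between the subunits was -0.043 with at least 1 CPM in 3 libraries, -0.020 with pseudogene counts added and -0.044 over core genes, the last chosen after seeing the data. It was -0.08 to -0.06 with single libraries left out. The ratio of levels was 0.862 with the longest transcript, 1.08 with pseudogene counts added, 0.980 from 1 CPM, and 0.831 with coding length, a choice made after seeing the data. The cause of these shifts was not tested. Rpl36-ps4, near 0 throughout, was at 0.00083 with no filter, 0.00019 with pseudogene counts added, and -0.046 to 0.053 with single libraries left out, above 0 without wild type 3 or mutant 2. Rpl3l was at -0.048 (without mutant 1) to 0.97 with single libraries left out.

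With the replicate number as a block, 17 small subunit genes had an unadjusted p under 0.05, 43 members in all did, 0 passed and 32 of all genes passed. The numbers do not pair the libraries: same-numbered libraries correlated at -0.08 to -0.02 in their deviations, and 0 of 6 correlated best with their own number.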
